A study of Mus musculus with 30 samples.

Results

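The data described here are the 18-week in vivo arm of a mouse series on cadmium and the pancreatic islet. Its libraries were chosen by sample title, and they are 11 of the series' 30 libraries: 6 labelled vehicle and 5 labelled cadmium. All 11 came from islets of male wild-type C57BL/6N mice, exposed in the living animal for 18 weeks to vehicle or to 1 mM cadmium chloride (CdCl2). Neither the dosing route nor the age of the animals is stated in the labels. A Biocoll gradient served to purify the islets, and Trizol to extract their RNA. It is also not stated whether each library is 1 animal or a pool, and p-values therefore describe the spread among libraries, part of which may be technical. The comparison asks how the RNA of islets differed after cadmium.

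Islets are clusters of endocrine cells in the pancreas. Beta cells make insulin, which they store with zinc in dense granules, alpha cells make glucagon, delta cells make somatostatin and PP cells make pancreatic polypeptide. Islets lie within acinar tissue, whose cells make the digestive enzymes and their inactive precursors, and which drains through ducts. Cadmium is a toxic metal that binds thiols and can enter cells through carriers of zinc and other metals. Cells answer to it through the factor MTF1, which switches on the metal-binding metallothioneins, and through stress pathways that handle oxidation and misfolded protein. In RNA from whole islet preparations, more cells of a type and more RNA per cell cannot be told apart.

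Total counts were 9092759 to 51404595 in the vehicle libraries and 21573301 to 51852364 in the cadmium libraries. Vehicle 4, vehicle 6 and cadmium 5 were the shallowest, with 14751249, 9092759 and 21573301 counts. The labelled tissue held, since the insulin gene Ins2 took the most counts in every library but vehicle 6, where an rRNA gene took 14.06% of counts. The 2 insulin genes together held 10.4% to 15.8% of counts in vehicle and 10.5% to 16.9% in cadmium. None of the 25 pairs of libraries within a group was identical or agreed within sampling noise. Levels below are in CPM, counts scaled to a common library size, here after TMM, a scaling that assumes most genes do not differ, and fold changes are cadmium over vehicle on the log2 scale.

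Genes that rose with cadmium were led by those of acinar cells. Of 20911 genes with enough counts to test, 72 rose (0.344%) and 3 fell (0.0143%) at an adjusted p under 0.05 in edgeR's quasi-likelihood test with Benjamini-Hochberg adjustment. Of the 72, 32 belonged to the lists of acinar enzymes and granule genes and 40 belonged to neither these nor the Reg list. These 40 cannot be taken as free of acinar genes, since the lists do not hold every gene of the trypsin precursor region on chromosome 6. Among these 72, 43 had a log2 fold change above 3 and 70 were highest in cadmium 4. In 30 of them all 5 cadmium libraries lay above all 6 vehicle libraries, and 25 of those 30 were outside the acinar lists. In the other 42, 4 of 5 cadmium libraries lay above all vehicle libraries, and in 41 of these the overlapping library was cadmium 2. Over all genes tested, 202 (0.966%) had all 5 cadmium libraries above and 126 (0.603%) had all 5 below. At an unadjusted p under 0.05, 2241 genes (10.7%) were higher and 1563 (7.47%) lower.

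The calls sat close to the threshold, with a lowest adjusted p of 0.0376 in edgeR's test, and many single libraries decided them. No gene passed without vehicle 1, vehicle 3, vehicle 4, vehicle 5, vehicle 6 or cadmium 3, and 2 (Serpinb1a and Try5) passed without cadmium 4, while 131 rose and 4 fell without vehicle 2, 186 and 9 without cadmium 1, 182 and 14 without cadmium 2 and 271 and 47 without cadmium 5. Without the 3 shallowest libraries together no gene passed, with a lowest adjusted p of 0.0624 in edgeR's test, and the 75 genes all kept their direction there and without each single library. From here on, called, passed, rose and fell refer to edgeR's test, and counts from DESeq2 are named as such. DESeq2 called 553 genes higher (2.77%) and 217 lower (1.09%), among them 74 of the 75 above.

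The share of counts taken by 46 acinar genes was 0.752%, 1.92%, 0.815%, 0.303%, 0.711% and 0.960% in vehicle libraries 1 to 6. In cadmium libraries 1 to 5 it was 3.70%, 1.70%, 9.69%, 19.9% and 6.66%. Cadmium 4 was the highest and cadmium 2 alone among the cadmium libraries fell within the vehicle range, below vehicle 2. The mean share was 0.911% ± 0.543 (SD, n = 6) for vehicle and 8.32% ± 7.13 (SD, n = 5) for cadmium, a ratio of 9.14, with an exact two-sided permutation p of 0.00433 over 462 arrangements, 0.0173 after adjustment over the 4 shares compared. Without cadmium 4 the difference was 4.52 percentage points in place of 7.41. The adjusted exact p was 0.0635 without vehicle 3 or vehicle 5, 0.0529 without vehicle 4 and 0.114 without the 3 shallowest libraries, where the difference was 7.69 percentage points. There 4 libraries against 4 allow no exact p below 0.0286 before adjustment. With same-numbered libraries taken as pairs the adjusted exact p was 0.25, and the 32 arrangements of 5 pairs allow no exact p under 0.05. The share of the 7 Reg genes, secreted lectins of acinar and injured islet tissue, was 0.0160% ± 0.0160 (SD, n = 6) and 0.0978% ± 0.0596 (SD, n = 5), with an exact permutation p of 0.0108 and an adjusted p of 0.0216. Its adjusted exact p was likewise 0.0635 without vehicle 3 or vehicle 5, 0.0529 without vehicle 4 and 0.114 without the 3 shallowest libraries, and its ratio went from 6.12 to 9.46 without vehicle 2. The insulin genes held 12.9% ± 2.04 (SD, n = 6) and 13.3% ± 2.44 (SD, n = 5), with an exact permutation p of 0.738. Counts of 50 cytosolic ribosomal protein genes held 1.07% ± 0.126 (SD, n = 6) and 1.27% ± 0.161 (SD, n = 5), with an exact permutation p of 0.0498 and an adjusted p of 0.0664.

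**Figure D1:**
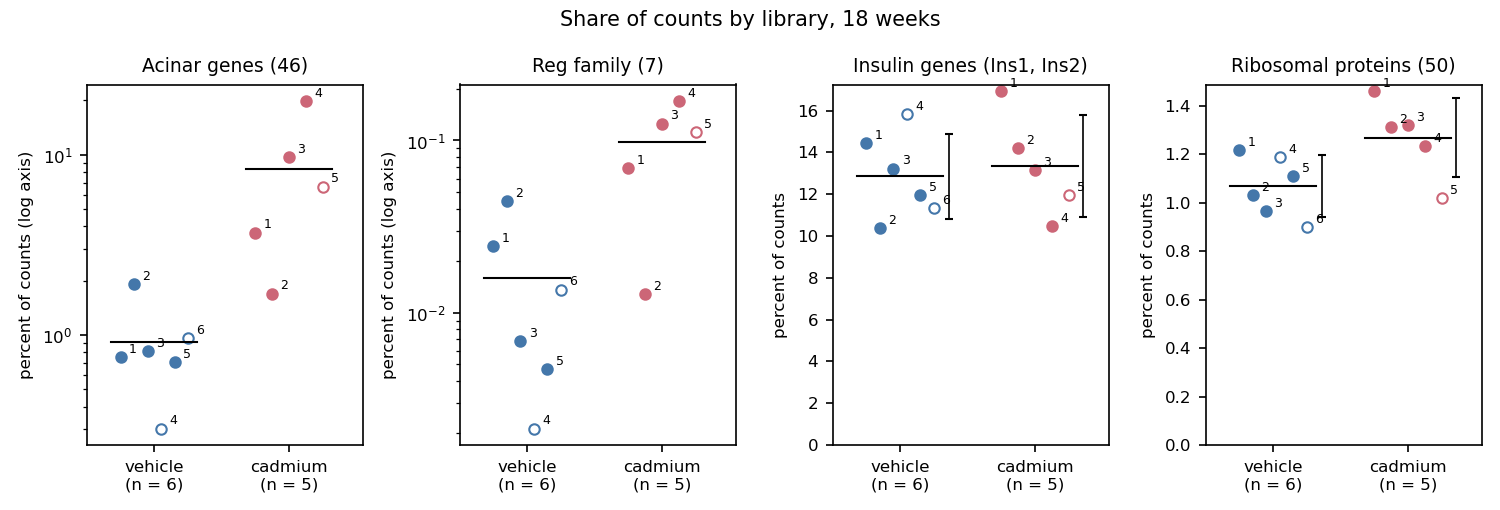
Percent of each library's counts taken by acinar genes, Reg genes, the insulin genes and cytosolic ribosomal protein genes, with 1 point per library numbered by replicate, open points for the 3 shallowest libraries, lines for group means and bars for SD on the linear axes. The acinar share spans 0.303% to 1.92% in vehicle and 1.70% to 19.9% in cadmium, while the insulin shares of the groups overlap.

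Digestive enzymes rose as a group. Of 25 enzyme genes tested, 22 rose and none fell, all 25 had a log2 fold change above 0, and the median was 3.43 against 0.0003 over all genes tested. Without cadmium 4 the median of the enzymes was 2.58 and that of the granule genes below was 2.52, against 3.26 with it. DESeq2 called 24 of the 25 enzymes and all 15 granule genes. The largest change was that of the trypsinogen Try5 (chromosome 6, 41311233 to 41316841, build mm10), an inactive precursor of the protein-cleaving enzyme trypsin. Its level was 209, 350, 146, 58.8, 105 and 195 CPM in vehicle libraries 1 to 6, and 2557, 519, 4759, 9554 and 2861 CPM in cadmium libraries 1 to 5. Every cadmium library lay above every vehicle library, with a log2 fold change of 4.51 ± 0.62 (SE) and an adjusted p of 0.0376 in edgeR's test.

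The neighbouring trypsinogen Try4 stood at 322 CPM ± 195 (SD, n = 6) for vehicle and 5888 CPM ± 5782 (SD, n = 5) for cadmium, a log2 fold change of 4.19 ± 0.66 (SE). Chymotrypsinogen Ctrb1 (chromosome 8, 111686519 to 111691010) stood at 457, 1272, 494, 178, 410 and 705 CPM in vehicle 1 to 6 and at 3309, 1472, 9234, 20351 and 5618 CPM in cadmium 1 to 5, a log2 fold change of 3.77 ± 0.61 (SE). Its groups did not overlap, although cadmium 2 exceeded vehicle 2 by little. Carboxypeptidase Cpa1, which trims amino acids from the ends of proteins, went from 675 CPM ± 399 (SD, n = 6) up to 7250 CPM ± 7174 (SD, n = 5), a log2 fold change of 3.42 ± 0.60 (SE). Pancreatic lipase Pnlip, which splits dietary fat, went from 949 CPM ± 557 (SD, n = 6) up to 10805 CPM ± 10588 (SD, n = 5), a log2 fold change of 3.51 ± 0.62 (SE). For Cpa1 and Pnlip 4 of 5 cadmium libraries exceeded every vehicle library. Prss2, Pnliprp2 and Try10 changed by 3.68, 3.50 and 3.17 on the same scale, and in each of these 3 genes cadmium 2 lay inside the vehicle range.

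Genes of the zymogen granule, in which acinar cells store enzymes, and of its folding machinery moved with the enzymes: 10 of 15 rose and all 15 had a log2 fold change above 0, with the median given above. Sycn, which encodes the granule protein syncollin, rose by 3.77 ± 0.65 (SE), Cuzd1 by 3.59 ± 0.62 (SE) and the trypsin inhibitor Spink1 by 3.71 ± 0.59 (SE). Dmbt1, a secreted mucosal protein, had a log2 fold change of 2.93 ± 0.60 (SE) that did not pass, with an adjusted p of 0.0555 in edgeR's test. None of the 6 transcription factors of acinar cells passed in edgeR's test, and 4 were called higher by DESeq2. Rbpjl, a partner of the acinar master regulator PTF1A, had 2.72 ± 0.62 (SE) with an adjusted p of 0.0831, Nr5a2 had 1.72 ± 0.37 (SE) with 0.0720 and Gata4 had 1.77 ± 0.46 (SE) with 0.112, all from edgeR's test. Xbp1, which acinar cells share with every secretory cell, had 0.04 ± 0.09 (SE). With the acinar share of each library as a covariate the median of the enzymes was -0.10 and that of the granule genes -0.19, a fit in which the covariate is the summed share of these same genes.

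Acinar enzyme genes are switched on by a complex of PTF1A and RBPJL that binds an E-box and a nearby TC-box in their promoters. Of the 25 enzymes, 20 had a promoter in the RefSeq table of build GRCm38.p6. In the 250 bases before the start site, searched on both strands, the E-box letters CACCTG stood in 13 of these 20 (65.0%) against 17.1% of 27025 promoters, and the other E-box, CAGCTG, in 4 (20%) against 12.8%. The TC-box letters TGGGAAA stood in 6 (30.0%) against 6.79%, and a TC-box with either E-box in 5 (25%) against 1.84%. Such a match describes letters and is not a measured binding site. The promoters of 5 enzymes whose levels or shares are described here are printed as examples, chosen with their values known and not as a sample of the list, with capitals for the TC-box and E-boxes as read on the strand shown. They are Ctrb1 (chr8:111691011-111691260, minus strand), Try4 (chr6:41302022-41302271, plus strand), Cpa1 (chr6:30638968-30639217, plus strand), the carboxypeptidase Cpb1 (chr3:20275734-20275983, minus strand) and the elastase Cela2a (chr4:141826006-141826255, minus strand).
Ctrb1: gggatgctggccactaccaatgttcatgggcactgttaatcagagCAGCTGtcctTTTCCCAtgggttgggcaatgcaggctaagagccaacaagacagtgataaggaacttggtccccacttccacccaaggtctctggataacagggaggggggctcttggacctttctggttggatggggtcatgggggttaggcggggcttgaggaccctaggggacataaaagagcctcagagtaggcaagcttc
Try4: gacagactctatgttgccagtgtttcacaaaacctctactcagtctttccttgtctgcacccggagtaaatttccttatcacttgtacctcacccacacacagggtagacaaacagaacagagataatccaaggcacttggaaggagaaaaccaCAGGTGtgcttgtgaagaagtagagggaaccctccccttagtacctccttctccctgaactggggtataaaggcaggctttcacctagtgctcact
Cpa1: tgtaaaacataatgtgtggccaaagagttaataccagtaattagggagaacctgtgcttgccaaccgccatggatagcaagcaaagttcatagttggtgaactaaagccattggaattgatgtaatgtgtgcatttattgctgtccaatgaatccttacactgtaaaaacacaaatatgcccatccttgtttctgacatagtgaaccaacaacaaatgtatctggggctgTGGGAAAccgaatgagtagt
Cpb1: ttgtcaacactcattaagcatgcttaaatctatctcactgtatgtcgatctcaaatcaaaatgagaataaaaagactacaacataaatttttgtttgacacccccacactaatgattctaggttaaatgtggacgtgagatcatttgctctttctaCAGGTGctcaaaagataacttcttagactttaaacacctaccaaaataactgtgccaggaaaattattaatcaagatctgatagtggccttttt
Cela2a: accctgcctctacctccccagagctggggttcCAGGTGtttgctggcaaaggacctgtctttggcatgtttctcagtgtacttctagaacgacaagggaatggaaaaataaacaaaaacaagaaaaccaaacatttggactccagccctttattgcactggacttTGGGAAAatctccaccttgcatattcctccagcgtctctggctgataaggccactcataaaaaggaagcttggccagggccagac
Ctrb1 and Cela2a hold both kinds of motif in this window, Try4 and Cpb1 hold an E-box and no TC-box, and Cpa1 holds a TC-box and no E-box.

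The make-up of the enzyme counts differed as well as their amount. Each enzyme was taken as a share of the counts of all 25 enzymes in its library, a comparison chosen after the values were seen. Of the 25 shares, 7 differed at an adjusted p under 0.05 in the exact permutation test with Benjamini-Hochberg adjustment over the 25. Try5 held 3.43%, 2.28%, 2.17%, 2.40%, 1.88% and 2.15% of enzyme counts in vehicle 1 to 6 and 7.40%, 3.66%, 4.93%, 4.10% and 4.79% in cadmium 1 to 5, with an adjusted exact p of 0.0135. The groups did not overlap, and cadmium 2 lay above vehicle 2, whose acinar share was 1.92% against 1.70%. Try4 held 4.24% ± 0.698 (SD, n = 6) and 6.49% ± 0.768 (SD, n = 5), with an adjusted exact p of 0.0155. Ctrb1 held 7.58% ± 0.404 (SD, n = 6) and 9.53% ± 0.582 (SD, n = 5), with an adjusted exact p of 0.0135. In all 3 every cadmium library lay above every vehicle library.

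Enzymes with a smaller share included the elastases Cela1 and Cela2a and the carboxypeptidase Cpb1. Cela1 held 8.42% ± 0.397 (SD, n = 6) for vehicle and 7.33% ± 0.446 (SD, n = 5) for cadmium, and Cpb1 held 10.3% ± 0.851 (SD, n = 6) and 8.74% ± 0.429 (SD, n = 5). Every cadmium library lay below every vehicle library in these 3. Cpa1, Pnlip and Prss2 kept shares of 8.91% and 8.53%, 12.5% and 12.4%, and 7.52% and 8.04% that did not pass. With Try4 and Try5 taken out of the sum, Ctrb1 alone differed, at 8.12% ± 0.454 (SD, n = 6) and 10.8% ± 0.627 (SD, n = 5) and an adjusted exact p of 0.0498. Cela1, Cela2a and Cpb1 did not pass there. Without the 3 shallowest libraries no share passed, since 4 libraries against 4 allow no exact p below 0.0286, and the 7 shares kept their direction with no overlap.

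Reads of the trypsinogens can belong to more than 1 gene. Of the 50-base stretches of the longest Try4 transcript 65.6% also occur in another gene, as do 53.9% of those of Try5, and 45.9% are common to these 2. The values of Try4 and Try5 are therefore best read together, and their summed share was 6.63% ± 1.23 (SD, n = 6) for vehicle and 11.5% ± 1.56 (SD, n = 5) for cadmium, with an exact permutation p of 0.00433. Ctrb1, Cela1, Cpa1 and Cpb1 have 0% of such stretches in another gene, while Cela2a has 25.6% of them in Ctrc and Prss2 has 7.83% in another gene.

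**Figure D2:**
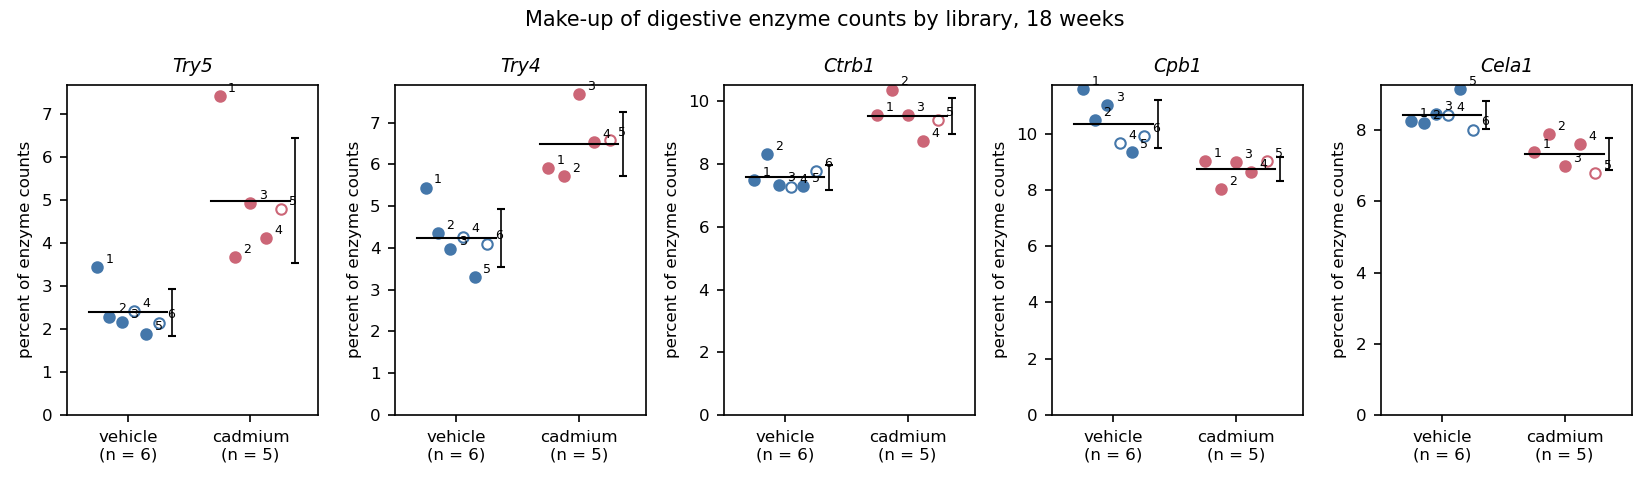
Share of 5 enzymes in the counts of all 25 digestive enzymes, with 1 point per library numbered by replicate, open points for the 3 shallowest libraries, a line for the group mean and a bar for SD. Try5, Try4 and Ctrb1 lie higher in all 5 cadmium libraries than in all 6 vehicle libraries, and Cpb1 and Cela1 lie lower.

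A further gene of the trypsinogen region of chromosome 6, 1810009J06Rik (40964754 to 40968435), also rose. Its raw counts were 6, 1, 0, 0, 1 and 0 in vehicle 1 to 6 and 3776, 16, 178, 202 and 45 in cadmium 1 to 5. Cadmium 1 held most of them, and every cadmium library lay above every vehicle library. With the enzyme counts of the same library in place of all counts as the base of the CPM, it stood at 18.9 or less in vehicle and at 2232, 20.2, 42.7, 22.2 and 34.1 in cadmium 1 to 5. The fitted log2 fold change of 8.89 ± 1.59 (SE) depends on the small count that the fit adds to each library, and its adjusted p was 0.0376 in edgeR's test. The gene had enough counts to test only through its cadmium libraries, so that p is no support for a difference. DESeq2 gave it no adjusted p. Of its 50-base stretches 81.5% also occur in the predicted gene Gm2663, whose counts were 4, 5, 0, 0, 0 and 0 in vehicle and 2389, 7, 162, 158 and 6 in cadmium, so these 2 genes cannot be told apart with certainty. This gene was named after its values were seen.

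The Reg genes had no call in edgeR's test and 2 in DESeq2. Reg1, made by acinar cells, stood at 205, 297, 63.7, 20.5, 41.3 and 141 CPM in vehicle 1 to 6 and at 611, 117, 1296, 2019 and 1060 CPM in cadmium 1 to 5. Only cadmium 2 overlapped the vehicle libraries, and the log2 fold change was 2.99 ± 0.69 (SE) with an adjusted p of 0.0831 in edgeR's test. All 6 Reg genes tested of the 7 listed had a log2 fold change above 0, with a median of 2.10. That median was 1.48 without cadmium 4, 3.44 without vehicle 2 and -1.24 with the acinar share as a covariate.

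Duct cells, which carry the enzymes to the gut, were represented by 17 markers, of which none passed in edgeR's test and 7 were called higher by DESeq2. Their median log2 fold change was 0.59, and 12 were higher at an unadjusted p under 0.05. Krt19, a keratin of duct epithelium, stood at 0.871 CPM ± 0.802 (SD, n = 6) and 8.20 CPM ± 7.91 (SD, n = 5), with 3.13 ± 0.64 (SE) and an adjusted p of 0.0565 in edgeR's test. Krt7, another duct keratin, had 0.27 ± 0.07 (SE), and the tight junction gene Cldn4 had 0.52 ± 0.12 (SE), with adjusted p-values of 0.114 and 0.0831 in edgeR's test. The summed duct markers were 532 to 647 CPM in vehicle and 668 to 1015 CPM in cadmium, so the groups did not overlap. Among 9 tested genes of acinar-to-ductal change and injury, 2 rose: the secreted chaperone Clu and the trefoil peptide Tff2. Clu stood at 71.5, 102, 60.2, 91.6, 98.6 and 82.0 CPM in vehicle and at 173, 127, 185, 342 and 129 CPM in cadmium, a log2 fold change of 1.18 ± 0.23 (SE). Tff2, also counted with the granule genes and the mucous epithelium, rose by 3.21 ± 0.57 (SE), and the mucin Muc1 had 2.16 ± 0.50 (SE) with an adjusted p of 0.0831 in edgeR's test.

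Outside the acinar and Reg lists, 40 genes rose, Clu among them, and 25 of the 40 stood higher in all 5 cadmium libraries. The 40 also include 1810009J06Rik and 2210010C04Rik, both in the trypsinogen region of chromosome 6. The latter, named after its values were seen, went from 559 CPM ± 321 (SD, n = 6) up to 5929 CPM ± 5876 (SD, n = 5). Serpinb1a, an inhibitor of neutrophil-type proteases that is known as a factor for beta cell growth, stood at 1.46, 2.90, 1.12, 1.43, 1.31 and 1.77 CPM in vehicle 1 to 6 and at 5.29, 6.73, 10.7, 22.3 and 6.98 CPM in cadmium 1 to 5. The groups did not overlap, and the log2 fold change was 2.63 ± 0.37 (SE).

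Dusp26, a phosphatase of neural and endocrine cells, was another. It stood at 16.8, 16.7, 13.6, 17.3, 16.0 and 16.7 CPM in vehicle and at 23.4, 22.3, 28.8, 37.6 and 26.0 CPM in cadmium, a log2 fold change of 0.78 ± 0.12 (SE). Ifitm3, an interferon-induced membrane protein that hinders virus entry, stood at 5.24, 5.91, 5.20, 5.85, 5.70 and 4.26 CPM and at 9.28, 9.51, 14.3, 16.8 and 7.84 CPM, a log2 fold change of 1.10 ± 0.18 (SE). Lgals1, a galectin of connective tissue and immune cells, went from 2.97 CPM ± 0.814 (SD, n = 6) up to 12.4 CPM ± 8.23 (SD, n = 5), a log2 fold change of 2.08 ± 0.35 (SE). In none of these 3 genes did the groups overlap.

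Of the 40, 4 more are given here. Cldn8, a claudin of tight junctions, went from 0.586 CPM ± 0.271 (SD, n = 6) up to 3.16 CPM ± 2.08 (SD, n = 5), and Lamb3, a laminin chain of the basement membrane, from 0.490 CPM ± 0.361 (SD, n = 6) up to 3.61 CPM ± 2.57 (SD, n = 5). Their log2 fold changes were 2.48 ± 0.41 (SE) and 2.76 ± 0.48 (SE). Alpl, the alkaline phosphatase of bone and liver, rose by 0.89 ± 0.15 (SE), and B4galnt1, which builds gangliosides, by 1.87 ± 0.33 (SE). All 4 stood higher in 5 of 5 cadmium libraries.

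The acinar share moved with many of these genes. With that share as a covariate 0 genes passed in edgeR's test, and of the 72 genes 39 kept a log2 fold change above 0. The value was then 1.1 for Serpinb1a, 0.35 for Dusp26, 0.57 for Ifitm3, 0.45 for Lgals1, 0.77 for Cldn8 and -0.07 for Ggt1. With acinar and Reg genes left out of the fit, 0 genes passed in edgeR's test, with a lowest adjusted p of 0.0588. All 40 stayed above 0 there. Leaving out genes of small p by itself raises the adjusted p of the rest, so that loss of calls decides nothing. With the covariate the lowest adjusted p was 0.993 in edgeR's test. The acinar share itself differed between the groups, so the covariate fit could hardly tell it from cadmium. The part of the acinar share in these differences was not settled by either fit and was not tested further.

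**Figure D3:**
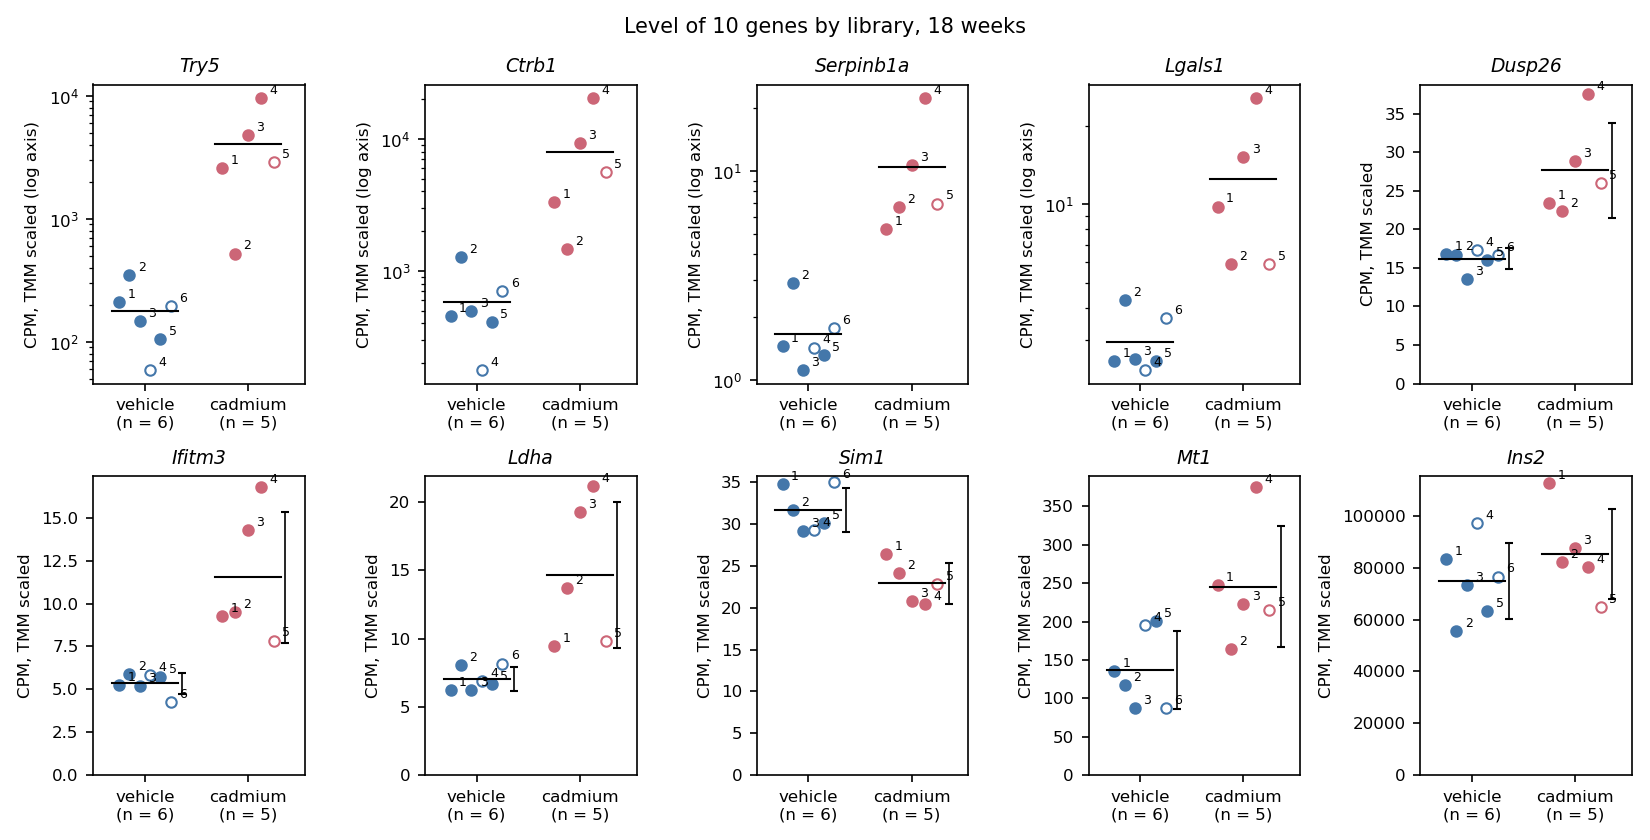
Levels of 10 genes in CPM on TMM-scaled library sizes, with 1 point per library numbered by replicate, open points for the 3 shallowest libraries, a line for the group mean and, on the linear axes, a bar for SD. The groups do not overlap for Try5, Ctrb1, Serpinb1a, Lgals1, Dusp26, Ifitm3, Ldha and Sim1, and overlap for Mt1 and Ins2.

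Only 3 genes fell, and 2 of them are predicted genes, Gm37755 and Gm26945, named here after their values were seen. The third was Sim1, a transcription factor of hypothalamic neurons and kidney. It stood at 34.8, 31.7, 29.2, 29.3, 30.1 and 35.0 CPM in vehicle 1 to 6 and at 26.4, 24.1, 20.8, 20.5 and 22.9 CPM in cadmium 1 to 5. The groups did not overlap, and the log2 fold change was -0.46 ± 0.08 (SE). Other genes of the lower side did not pass in edgeR's test: Hapln1, which links hyaluronan to proteoglycans, at -0.52 ± 0.11 (SE) with an adjusted p of 0.0565, and Uggt2, a glycoprotein folding sensor, at -0.34 ± 0.07 (SE) with an adjusted p of 0.0701. The chromatin organiser Satb1, at -0.39 ± 0.08 (SE), also had an adjusted p of 0.0701. In these 3 genes too all 5 cadmium libraries lay below all 6 vehicle libraries.

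Endocrine genes showed no call in edgeR's test other than 1 disallowed gene. None of 18 beta cell hormone and granule genes, 18 beta cell transcription factors or 24 genes of glucose sensing and insulin secretion passed in either edgeR or DESeq2, with medians of 0.03, -0.05 and 0.02. Ins2 stood at 83409, 55500, 73477, 97097, 63372 and 76590 CPM in vehicle and at 112570, 82262, 87588, 80212 and 64719 CPM in cadmium, and its groups overlapped. Its log2 fold change was 0.19, with a 95% interval from -0.26 to 0.64. The interval was -0.25 to 0.51 for Ins1, -0.24 to 0.11 for the beta cell factor Pdx1 and -0.24 to 0.24 for Mafa, which drives insulin transcription. For the glucose transporter Slc2a2 it was -0.26 to 0.25. For Slc30a8, which loads zinc into insulin granules, it was -0.34 to 0.12, and for G6pc2, which opposes glucose sensing, -0.73 to 0.03. Ucn3, a peptide of mature beta cells, had 0.14 ± 0.09 (SE).

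Genes of the other islet cells had no call in edgeR's test, while DESeq2 called 1 alpha cell marker higher and, among delta and PP cell markers, 1 higher and 1 lower. The 11 alpha cell markers and 9 delta and PP cell markers had medians of 0.08 and 0.05. Glucagon (Gcg) stood at 6803 to 12411 CPM in vehicle and 8257 to 9821 CPM in cadmium, and somatostatin (Sst) at 809 to 1408 CPM and 873 to 1518 CPM. Pancreatic polypeptide (Ppy) stood at 1677, 1354, 831, 1501, 977 and 1442 CPM in vehicle and at 2232, 1780, 1607, 2590 and 1829 CPM in cadmium. In 4 of 5 cadmium libraries it exceeded every vehicle library, with 0.63 ± 0.18 (SE) and an adjusted p of 0.142 in edgeR's test and 0.0191 in DESeq2. The related peptide Pyy had 0.34 ± 0.16 (SE).

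Disallowed genes are kept low in beta cells but are active in most other cells. Of 16 tested, 15 were above 0, 12 had an unadjusted p under 0.05, and the median was 0.92. Ldha, the lactate dehydrogenase, was the only one to pass in edgeR's test, against 7 called higher by DESeq2. It stood at 6.23, 8.07, 6.20, 6.87, 6.66 and 8.16 CPM in vehicle and at 9.44, 13.7, 19.2, 21.2 and 9.83 CPM in cadmium. The groups did not overlap, with a log2 fold change of 1.07 ± 0.20 (SE). Ornithine aminotransferase Oat had 0.75 ± 0.17 (SE) and the growth factor Igf1 2.23 ± 0.46 (SE), with adjusted p-values of 0.0840 and 0.0585 in edgeR's test. With the acinar share as a covariate the median of the list was -0.03.

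**Figure D4:**
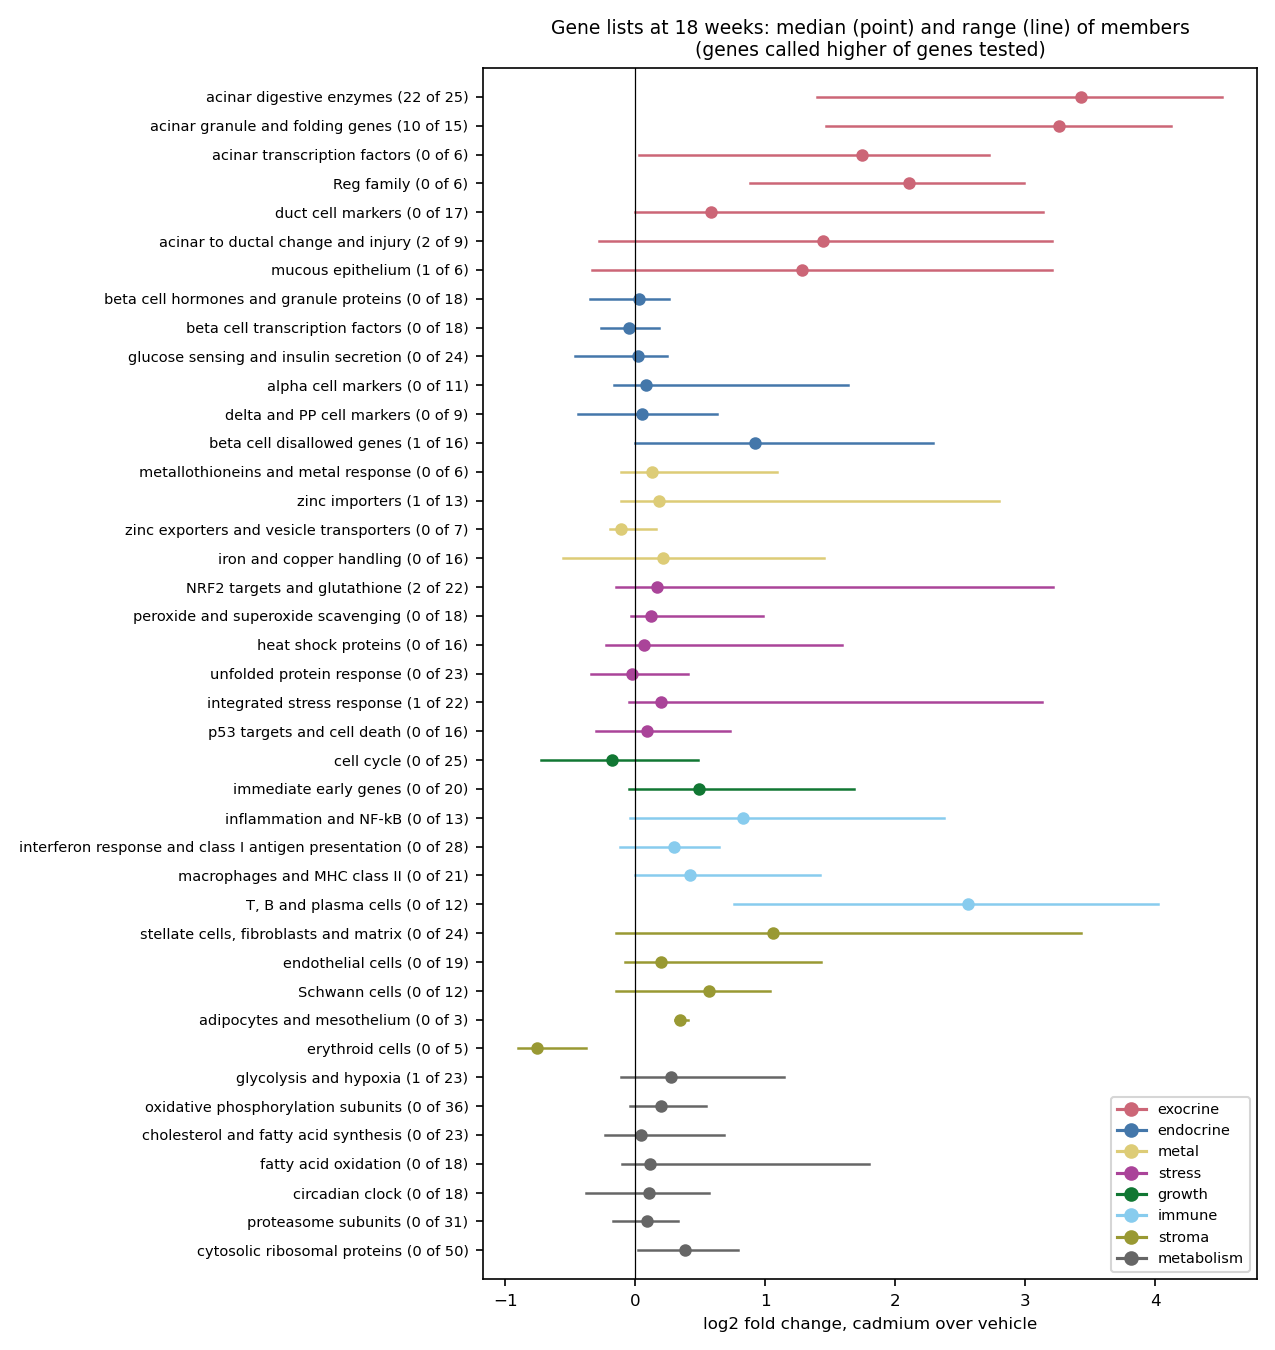
Log2 fold change, cadmium over vehicle, for 41 gene lists, with a point for the median of the tested members and a line from the lowest to the highest member, coloured by role, and the number called higher of the number tested in brackets. The acinar enzyme and granule lists lie at 3.43 and 3.26, and the 3 beta cell lists of hormones, factors and secretion lie at 0.03, -0.05 and 0.02.

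Of 6 metallothionein and metal response genes tested, none passed in edgeR's test, 1 was called higher by DESeq2, 4 lay above 0 and 2, Mt1 and Mt2, had an unadjusted p under 0.05. Mt1 (chromosome 8, 94179082 to 94180327), which binds zinc, copper and cadmium, stood at 135, 117, 86.8, 195, 200 and 87.7 CPM in vehicle 1 to 6 and at 248, 165, 223, 375 and 215 CPM in cadmium 1 to 5. All but cadmium 2 exceeded every vehicle library. The log2 fold change was 0.84 with a 95% interval from 0.31 to 1.37 and an adjusted p of 0.142 in edgeR's test. Mt2, its neighbour on the chromosome, stood at 2.47, 2.18, 2.32, 4.08, 4.26 and 1.30 CPM and at 6.01, 4.10, 5.99, 9.58 and 4.35 CPM, with 1.09 ± 0.28 (SE) and an adjusted p of 0.103 in edgeR's test. In DESeq2 the adjusted p was 0.00546 for Mt2 and 0.0852 for Mt1. The MTF1 target Slc30a1, which exports zinc, had 0.16 ± 0.09 (SE). Without cadmium 4 the values of Mt1 and Mt2 were 0.63 and 0.86, and with the acinar share as a covariate 0.64 and 0.80.

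MTF1 binds short metal response elements. The 250 bases before the start site of Mt2 (chr8:94172368-94172617, plus strand, RefSeq GRCm38.p6) are printed with element cores of the forms TGCACNC and TGCGCNC in capitals, on either strand, because this gene carried the larger of the 2 metallothionein changes.
Mt2: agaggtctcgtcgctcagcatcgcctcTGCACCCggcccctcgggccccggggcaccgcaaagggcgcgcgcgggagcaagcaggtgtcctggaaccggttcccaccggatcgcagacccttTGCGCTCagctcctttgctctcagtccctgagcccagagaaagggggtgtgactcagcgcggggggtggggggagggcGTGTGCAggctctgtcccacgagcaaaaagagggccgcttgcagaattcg
This window holds 3 cores, at 223, 128 and 50 bases before the start site. In the same window of Mt1 the only core of either form was a TGCACNC, 23 bases before the start site. The form TGCACNC stood in 10.2% and TGCGCNC in 12.6% of all promoters of this length, and in 15% and 0% of the 20 enzyme promoters.

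Of 13 zinc importers, 1 rose. Slc39a5, an importer of acinar and gut epithelium, went from 2.57 CPM ± 1.29 (SD, n = 6) up to 17.9 CPM ± 15.8 (SD, n = 5), a log2 fold change of 2.80 ± 0.52 (SE), and cadmium 2 lay inside the vehicle range. With the acinar share as a covariate its value was -0.22. Slc39a4, the zinc importer of the gut, did not pass and had 2.64 ± 0.65 (SE) at levels under 2 CPM. Its raw counts were 5, 12, 4, 2, 5 and 3 in vehicle 1 to 6 and 8, 57, 50, 73 and 2 in cadmium 1 to 5. Without cadmium 2, 3 and 4 it would not have had enough counts to test, so its value is no support for a difference. None of 7 zinc exporters and vesicle transporters passed, with a median of -0.11, and none of 16 genes of iron and copper handling, with a median of 0.21, in edgeR's test. DESeq2 called 1 iron and copper gene lower, and 3 zinc importers higher. Ireb2, an iron sensor that controls ferritin translation, was lower in 4 of 5 cadmium libraries than in every vehicle library. Its log2 fold change was -0.55 ± 0.16 (SE), with an adjusted p of 0.134 in edgeR's test and 0.0294 in DESeq2.

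Oxidative stress genes gave 2 calls among 22 NRF2 targets and glutathione genes, whose median was 0.17. Ggt1, which breaks down glutathione outside cells, stood at 2.19, 4.56, 1.46, 1.09, 1.78 and 2.25 CPM in vehicle and at 7.89, 4.24, 24.4, 56.6 and 13.9 CPM in cadmium, a log2 fold change of 3.22 ± 0.58 (SE), and cadmium 2 lay below vehicle 2. Gsta4, a glutathione transferase for products of lipid oxidation, went from 0.404 CPM ± 0.118 (SD, n = 6) up to 1.31 CPM ± 0.550 (SD, n = 5), 1.72 ± 0.31 (SE), with every cadmium library above every vehicle library. Gstp1 had 0.76 ± 0.17 (SE) with an adjusted p of 0.0803 in edgeR's test. Classical NRF2 targets did not pass: heme oxygenase Hmox1 had a 95% interval from -0.30 to 0.75, Nqo1 from -0.25 to 0.37 and thioredoxin reductase Txnrd1 from -0.07 to 0.20. None of 18 scavengers of peroxide and superoxide passed in edgeR's test and 1 was called higher by DESeq2, and among the 18 was Prdx4, a peroxiredoxin of the secretory pathway, at 0.98 ± 0.27 (SE).

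Genes of misfolded protein stress gave no call in edgeR's test, and DESeq2 called 1 heat shock gene higher. None of 23 genes of the unfolded protein response passed, with a median of -0.03, and the chaperone Hspa5 stood at 1664 to 2349 CPM in vehicle and 1541 to 3340 CPM in cadmium. None of 16 heat shock genes passed, and Hspa8 was 0.08 ± 0.20 (SE). The median of the heat shock list was 0.07 and was below 0 in the 8 deeper libraries and without cadmium 4, at -0.11 and -0.16. Of 22 genes of the integrated stress response, which slows translation, 1 rose. This was Stc2, a secreted glycoprotein, at 0.188 CPM ± 0.176 (SD, n = 6) and 1.75 CPM ± 1.28 (SD, n = 5), 3.0 ± 0.55 (SE), with the groups not overlapping. Its raw counts were 7, 31, 5, 1, 8 and 1 in vehicle 1 to 6 and 44, 31, 92, 148 and 31 in cadmium 1 to 5. Stc2 had enough counts to test only through its cadmium libraries, so neither its call nor the lack of overlap is support for a difference. Fgf21, a hormone made by acinar cells and liver, had 3.13 ± 0.81 (SE) and Nupr1, a stress factor of the pancreas, 1.44 ± 0.42 (SE), with adjusted p-values of 0.111 and 0.138 in edgeR's test. The core factors Atf4 and Ddit3 had 0.09 ± 0.11 (SE) and 0.40 ± 0.32 (SE). None of 16 p53 targets and none of 25 cell cycle genes passed in edgeR's test, with medians of 0.09 and -0.18, and DESeq2 called 1 p53 target higher.

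Immediate early genes, which respond within minutes to stimulation or handling, split the libraries across the groups. Fos stood at 109, 54.7, 14.2, 506, 1091 and 47.7 CPM in vehicle 1 to 6 and at 98.7, 22.5, 27.9, 1244 and 1343 CPM in cadmium 1 to 5. Libraries numbered 4 and 5 were high in both groups. None of the 20 genes of the list passed, and DESeq2 called none. The median was 0.49, and it was 0.06 without cadmium 4, 0.09 without cadmium 5, 1.18 without vehicle 5 and -0.56 with the acinar share as a covariate. Atf3, a stress-induced factor, was likewise high in vehicle 5 at 92.7 CPM and in cadmium 4 and 5 at 177 and 167 CPM.

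Immune and connective tissue lists lay above 0 with 0 calls in edgeR's test. DESeq2 called higher 2 interferon and class I genes, 4 macrophage and class II genes, 2 inflammation genes and 3 matrix genes. Of 28 genes of interferon response and class I antigen presentation, 24 were above 0 and 12 had an unadjusted p under 0.05, with a median of 0.30. H2-D1, a class I molecule, stood at 192, 198, 188, 221, 230 and 203 CPM in vehicle and at 241, 242, 290, 274 and 241 CPM in cadmium, with no overlap, 0.33 ± 0.08 (SE) and an adjusted p of 0.103 in edgeR's test. Of 21 macrophage and MHC class II genes 20 were above 0, with a median of 0.42. The macrophage receptor Adgre1 stood at 4.88 to 7.14 CPM in vehicle and 7.54 to 8.06 CPM in cadmium, with no overlap, and the class II gene H2-Aa at 46.1 to 62.5 CPM and 53.3 to 104 CPM. H2-D1 and Adgre1 were each the only member of their list with all 5 cadmium libraries above all 6 vehicle libraries. Over all genes tested that share was 0.966%. Of 13 inflammation genes none passed, with a median of 0.83, and the adhesion molecule Icam1 had 1.29 ± 0.32 (SE).

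Lymphocyte genes rested on a few libraries. The 12 tested T, B and plasma cell genes had a median of 2.56, 1.52 without cadmium 2 and 1.18 without cadmium 3. Their summed level was 97.2 CPM in vehicle 4 and 128, 747 and 70.2 CPM in cadmium 2, 3 and 4, and under 20 CPM in the other 7 libraries. The immunoglobulin gene Ighm stood at 47.8 CPM in vehicle 4 and 320 CPM in cadmium 3. Stellate cell, fibroblast and matrix genes had a median of 1.06 over 24 genes, 18 of them at an unadjusted p under 0.05. That median was 0.71 without cadmium 4 and 0.02 with the acinar share as a covariate. Fibronectin Fn1 stood at 30.3 CPM in cadmium 2 and at 0.136 to 4.75 CPM in the other cadmium libraries, and the collagen Col1a2 had 1.18 ± 0.34 (SE) with an adjusted p of 0.133 in edgeR's test. Endothelial and Schwann cell lists had medians of 0.20 and 0.57, and 5 erythroid genes had -0.75. Of these 5 genes, 1 had all 5 cadmium libraries below all 6 vehicle libraries, against 0.603% of all genes tested. The lowest adjusted p of the 5 was 0.0975 in edgeR's test, and DESeq2 called 1 of them lower. The globin Hbb-bs stood at 88.6 CPM in vehicle 4 and at 13.2 to 29.5 CPM in the other 10 libraries, and without the 3 shallowest libraries the erythroid median was 0.04, and without vehicle 4 alone it was -0.15.

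**Figure D5:**
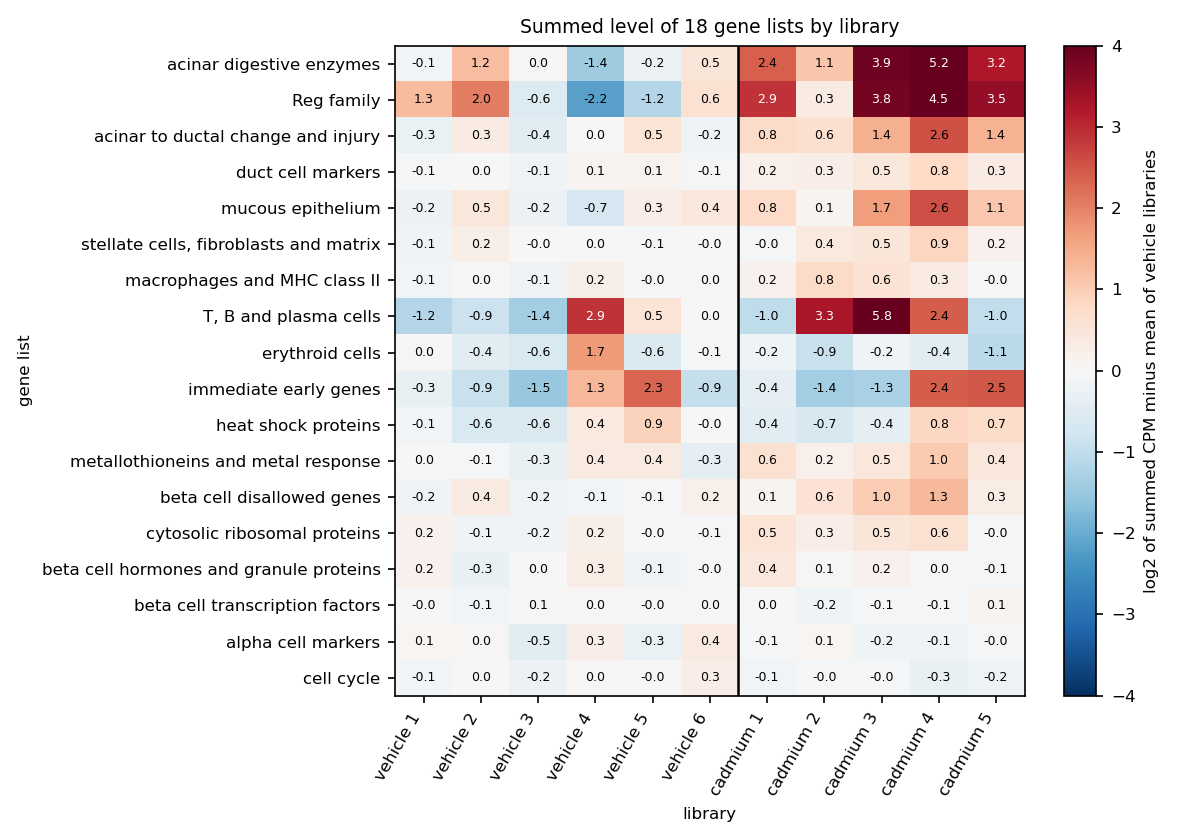
Summed CPM of 18 gene lists in each library, as log2 minus the mean of the vehicle libraries, with colours that stop at -4 and 4 and the value printed in each cell. Acinar, Reg and mucous lists are highest in cadmium 3, 4 and 5, cadmium 2 is close to vehicle 2 for the acinar enzymes, and immediate early genes are high in libraries 4 and 5 of both groups.

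Genes of energy metabolism and translation gave 1 call in edgeR's test. The 50 cytosolic ribosomal protein genes were all above 0, with 41 at an unadjusted p under 0.05 and a median of 0.38. None passed in edgeR's test, and DESeq2 called 22 higher. Such genes have many pseudogene copies, among which reads can be split. Protein-coding genes of the shortest length class described below had a median of 0.13, against -0.06 in the longest. The part of gene length in these lists was not tested. Of 36 nuclear genes of oxidative phosphorylation, 34 were above 0, with a median of 0.20. Glycolysis and hypoxia genes had a median of 0.27 and 1 call of 23, Ldha. Cholesterol and fatty acid synthesis, fatty acid oxidation, clock and proteasome lists had medians of 0.04, 0.11, 0.10 and 0.09 and 0 calls in edgeR's test. DESeq2 called higher 3 genes of oxidative phosphorylation, 2 of glycolysis, 3 of fatty acid oxidation, 2 of the proteasome and 1 of cholesterol and fatty acid synthesis.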

How the data were processed

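RNA of the 11 libraries was sequenced by the submitters, and the authors deposited raw read counts per Ensembl gene for each library. Per the submitters' processing notes, cutadapt 1.13, STAR, HTSeq 0.6.1p1, DESeq2 and the mm10 build were used. The notes and labels name no annotation release and no handling of strand or of reads that fit several genes, so overlapping and near-identical genes are uncertain. Of 54232 gene IDs, 99.718% had a symbol in GENCODE, and unnamed IDs held at most 0.01724% of counts.

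From the counts, genes were kept by filterByExpr (minimum count 10, minimum total 15) and tested in edgeR 4.0.16 (R 4.3.3) by the quasi-likelihood test with TMM scaling and Benjamini-Hochberg adjustment at 0.05. SE and 95% intervals come from that fit. Shares were compared by exact two-sided permutation over libraries. Alternatives were DESeq2 1.42.0, limma 3.58.1 with voom library weights, other scaling, other filters, a replicate block, each library left out, the 8 deeper libraries, a table without acinar and Reg genes and the acinar share as a covariate. The fits were also run on simulated counts with known changes. These had a common spread for all genes, unlike these data, so they give no error rate for the calls here. Promoters came from RefSeq. Samples were grouped by title.

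Genes were named by a rule: 20 higher and 10 lower genes with a mean of at least 1 CPM, leading by p, the leading members and the member of highest level in each of 41 lists, and fixed genes of metal, hormone and stress responses. The libraries and lists were chosen with earlier results of these data known.

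Some genes are not reported here.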

Additional observations from a re-analysis of the deposited data

Results flagged for a closer look

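Within each group of 6 or 5 libraries, the library at either end was compared with its neighbour by Dixon's criterion at 95%. Of 180 groups of values tested, 26 had a library apart from the rest, and chance sets apart about 1 in 20.

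Cadmium 5 had a total of 21573301 counts, against 46814618 in the next cadmium library, and vehicle 6 held 14.06% of counts in rRNA genes, against 4.559% in the next vehicle library.

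Vehicle 2 stood above the other vehicle libraries for several genes of acinar, duct and connective tissue. Its level was 7.217 CPM for Rbpjl, 3.233 CPM for Nr5a2, 4.561 CPM for Ggt1, 2.464 CPM for Krt19 and 2.429 CPM for Igf1. It was 11.22 CPM for Col1a2, 2.097 CPM for Fn1, 2.901 CPM for Serpinb1a and 0.5417 CPM for Stc2.

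Cadmium 4 stood apart for Clu at 342.2 CPM, Rbpjl at 42.7 CPM and Col1a2 at 30.41 CPM, all above the other cadmium libraries, and for Satb1 at 24.12 CPM, below them. Fn1 was apart in cadmium 2 at 30.34 CPM. Ighm was apart in cadmium 3 at 319.6 CPM and in vehicle 4 at 47.83 CPM, and Hbb-bs in vehicle 4 at 88.65 CPM.

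Vehicle 5 was highest of its group for Atf3 at 92.7 CPM and Ddit3 at 36.42 CPM, and vehicle 3 was lowest for Dusp26 at 13.56 CPM. Vehicle 1 was highest for G6pc2 at 4136 CPM and for the share of Try5 in enzyme counts at 3.425%. For 1810009J06Rik, vehicle 1 stood at 0.1151 CPM and cadmium 1 at 77.17 CPM, each above the rest of its group.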

How the results depend on the processing

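The count of 72 higher and 3 lower genes became 553 and 217 in DESeq2, 134 and 6 with no count filter, and 0 and 0 without the 3 shallowest libraries, with voom library weights in limma, without acinar and Reg genes, and with the acinar share as a covariate. Leaving out each library in turn gave 0 to 271 higher and 0 to 47 lower genes. The share of acinar counts was 7.69 percentage points higher without the 3 shallowest libraries, with an adjusted exact p of 0.114, and 4.52 to 9.07 points higher with each library left out. With the replicate block, 1 gene rose and 0 fell. The 1 gene was 1810009J06Rik, with at most 6 counts in any vehicle library. The paired difference in acinar share was 7.42 points with an adjusted exact p of 0.25, but the 32 arrangements of 5 pairs allow no exact two-sided p under 0.05. Correlations of deviation ran from -0.0867 to 0.2735 for same-numbered libraries and from -0.265 to 0.226 for differently numbered ones. The libraries numbered 1 and 5, at 0.2735 and 0.234, exceeded every differently numbered pair. The main tests did not pair libraries, and whether the numbers mark pairs was not settled. Enzymes whose share of enzyme counts differed numbered 7, against 1 without Try4 and Try5, 0 without the 3 shallowest libraries and 6 to 8 with each library left out, and this comparison and its alternatives were chosen after seeing the data. With the covariate the log2 fold change was -0.00034 for Cpa1, -0.11 for Cuzd1, -0.069 for Ggt1, -0.10 for Pnlip, -0.013 for Pnliprp2, -0.22 for Slc39a5 and -0.19 for Tff2, and the cause was not tested. Of 81 genes in the text, 81 kept their side of the threshold with RLE scaling, where 1 gene that was not called changed sign, and 28 lost their call with voom weights. The number of libraries and the spread among cadmium libraries limit precision, and total counts of 9092759 and 14751249 limit genes of low level in vehicle 6 and vehicle 4.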

Other observations

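Gene classes of the annotation differed in where their fold changes lay. Over 14808 protein-coding genes the median log2 fold change was 0.04, and 6216 lay below 0. Of 1513 TEC genes, transcripts that await experimental checks, 1288 lay below 0 with a median of -0.33, and of 176 sense intronic genes 151 lay below 0 with a median of -0.31. The median was -0.15 over 1180 antisense genes and -0.16 over 1080 processed pseudogenes.

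Protein-coding genes outside the acinar lists also ordered by length. Over 5 equal classes of 14757 such genes, from the shortest (27 to 2460 bases) to the longest (7599 to 123179 bases), the median log2 fold change was 0.13, 0.09, 0.05, 0.01 and -0.06. Genes are not independent replicates, and no test was made. The share of counts in rRNA genes was 0.149% to 14.06% in vehicle and 0.62% to 5.72% in cadmium.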
